A study of Homo sapiens with 6 samples.

Results

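Intergenic lincRNA genes are long noncoding RNA genes that GENCODE release 29 gives the type lincRNA, and they were followed across 6 RNA-seq libraries labelled as Huh7, an established human cell line of hepatocellular carcinoma, a liver cancer. The hypoxia group holds 3 libraries of wild-type (WT) cells kept for 24 h in 1% oxygen. The normoxia group holds 3 libraries of the same WT line kept at 21% oxygen, also labelled 24 h. The title of the series concerns an lncRNA induced by low oxygen and ferroptosis in liver cancer. Per the labels, ribosomal RNA was removed from total RNA before strand-specific, paired-end sequencing. The replicates are called biological in the labels, with no account of how the cultures were separated. The p-values here set the difference between the groups only against the spread of these libraries. In bulk RNA from a culture, fewer cells of a kind and less RNA per cell cannot be told apart.

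Members were chosen by annotation alone. The release lists 7629 lincRNA genes, of which 71 were left out by the rule: H19, NEAT1, MALAT1, LUCAT1, GAS5, the SNHG genes and the microRNA host genes with names of the form MIR...HG. Of the remaining 7558 genes, 7516 were in the deposited table, among 58478 genes in all. The type name says intergenic, but the bodies of 871 of these 7516 genes overlap the body of a protein-coding gene on one of the strands. The hypoxia libraries are called C4, C5 and C6 and the normoxia libraries C1, C2 and C3, as in the table, and values per library are given in that order.

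A lincRNA is transcribed by RNA polymerase II like an mRNA, is usually capped, and is often spliced, but it does not encode a known protein. Some act in the nucleus near the gene they come from, as FENDRR has been linked to the FOXF1 locus, and others act on proteins elsewhere in the cell, as NORAD binds the Pumilio RNA-binding proteins. Many have no known function, and in some cases the act of transcription rather than the RNA product affects a neighbouring gene. In low oxygen the hypoxia-inducible factors (HIF) are stabilised and bind DNA at a short core sequence, ACGTG or GCGTG, near many of the genes they switch on.

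The promoter windows below belong to lincRNA genes named for a large rise, a large fall or a high level, and the HIF core can be read in them. Only genes with a RefSeq window that holds the start of their most abundant transcript are shown. Many of the named genes have no such window, among them ENSG00000285888, the largest rise. Each runs from 250 bases before to 50 bases after the start of the gene in RefSeq, on assembly GRCh38.p14, 5′ to 3′ on the strand of the gene. Capitals mark ACGTG or GCGTG, or their reverse complements CACGT and CACGC, found by searching both strands. A palindromic CACGTG counts as 2 overlapping matches, 1 on each strand. The windows of LINC01583 (chr15:82088344-82088643, plus strand), LINC02178 (chr16:50395084-50395383, minus strand) and LINC02348 (chr15:101614290-101614589, minus strand) belong to genes with large rises. The window of C1orf220 (chr1:178542546-178542845, plus strand) belongs to a gene that fell. The windows of NORAD (chr20:36050911-36051210, minus strand), LINC00506 (chr3:87089030-87089329, plus strand) and FENDRR (chr16:86508811-86509110, minus strand) belong to abundant genes.
LINC01583: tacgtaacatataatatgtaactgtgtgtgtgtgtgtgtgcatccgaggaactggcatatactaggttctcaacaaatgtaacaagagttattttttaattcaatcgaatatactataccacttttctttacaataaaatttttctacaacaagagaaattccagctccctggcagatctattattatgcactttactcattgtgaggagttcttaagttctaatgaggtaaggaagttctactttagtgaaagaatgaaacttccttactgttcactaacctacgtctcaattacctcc
LINC02178: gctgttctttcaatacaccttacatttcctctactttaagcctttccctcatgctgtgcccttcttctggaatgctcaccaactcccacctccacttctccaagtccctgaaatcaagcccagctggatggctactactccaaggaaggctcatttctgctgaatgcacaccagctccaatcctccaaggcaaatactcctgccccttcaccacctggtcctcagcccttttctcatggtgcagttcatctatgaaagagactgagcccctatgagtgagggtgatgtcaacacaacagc
LINC02348: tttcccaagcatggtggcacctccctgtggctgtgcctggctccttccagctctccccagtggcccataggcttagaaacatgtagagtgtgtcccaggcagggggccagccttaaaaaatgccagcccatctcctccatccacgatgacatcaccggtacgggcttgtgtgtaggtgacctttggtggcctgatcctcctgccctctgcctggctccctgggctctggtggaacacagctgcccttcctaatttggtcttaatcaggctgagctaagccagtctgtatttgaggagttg
C1orf220: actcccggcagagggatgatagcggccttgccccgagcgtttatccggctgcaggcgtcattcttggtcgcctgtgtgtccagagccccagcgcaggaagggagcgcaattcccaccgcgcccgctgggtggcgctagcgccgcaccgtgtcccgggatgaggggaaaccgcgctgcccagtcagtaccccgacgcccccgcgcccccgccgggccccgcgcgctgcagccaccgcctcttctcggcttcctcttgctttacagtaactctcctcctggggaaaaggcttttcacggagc
NORAD: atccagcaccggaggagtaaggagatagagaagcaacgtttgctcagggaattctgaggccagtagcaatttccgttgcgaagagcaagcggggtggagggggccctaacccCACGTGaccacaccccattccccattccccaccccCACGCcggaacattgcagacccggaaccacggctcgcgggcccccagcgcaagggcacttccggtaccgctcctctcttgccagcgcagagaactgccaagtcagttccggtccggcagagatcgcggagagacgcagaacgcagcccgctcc
LINC00506: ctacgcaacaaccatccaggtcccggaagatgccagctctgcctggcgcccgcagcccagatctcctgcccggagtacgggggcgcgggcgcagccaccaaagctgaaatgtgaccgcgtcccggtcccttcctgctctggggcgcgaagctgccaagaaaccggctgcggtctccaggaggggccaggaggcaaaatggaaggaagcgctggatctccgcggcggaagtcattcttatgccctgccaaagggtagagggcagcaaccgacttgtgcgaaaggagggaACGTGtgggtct
FENDRR: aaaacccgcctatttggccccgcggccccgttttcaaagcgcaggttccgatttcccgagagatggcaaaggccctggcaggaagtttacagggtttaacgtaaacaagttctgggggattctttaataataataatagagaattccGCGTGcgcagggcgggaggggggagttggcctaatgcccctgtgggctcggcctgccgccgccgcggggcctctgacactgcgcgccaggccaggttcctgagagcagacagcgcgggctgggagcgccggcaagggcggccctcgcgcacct

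The 3 windows shown for large rises and that of C1orf220 held neither core sequence. They do not stand for all risen genes: a core was present in 56.1% of the 114 windows of risen genes counted below. NORAD held ACGTG on both strands within a single CACGTG and GCGTG on its opposite strand. LINC00506 held ACGTG near the end of its window, past the start site. FENDRR, which fell, held GCGTG. The windows also differed in base composition: C and G made up 34% of the LINC01583 window with 4 CpG dinucleotides, 50% of the LINC02178 window with 0 CpG, and 68% of the C1orf220 window with 31 CpG. A match is a run of letters in the window and says nothing about binding.

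The depth was 37621426 to 40794783 expected counts in a library. Across the lincRNA genes tested, log2(CPM + 0.5) correlated at r = 0.971 to 0.980 between libraries of a group and at 0.796 to 0.817 between groups, where CPM is the count scaled to library size after TMM adjustment, and genes are not independent replicates. Within a group, libraries differed beyond sampling noise (chi-square per degree of freedom 4.47 to 10.9), and none was taken for a copy of another. The label of the line was checked on 10 hepatocyte markers. Of these, 7 were under 1 CPM in both groups, and AFP, APOA1, TTR and GPC3 had no count in any library. ALB, the albumin gene, had 6 counts in all. These defining hepatocyte genes were thus at or near 0, which goes against the label of the line, and a 0 below says only that the table lists no count. HNF4A, a hepatocyte transcription factor gene, averaged 7.005 CPM in hypoxia and 1.29 CPM in normoxia. The summed level of the 10 was 20.8 to 21.6 CPM in hypoxia and 8.86 to 10.7 CPM in normoxia. Nearly all of it came from the marker gene TF, with 12.1 CPM in hypoxia and 8.24 CPM in normoxia, HNF4A, and SERPINA1, with 1.83 and 0.0669 CPM. Of 16 markers of leukocytes, fibroblasts, endothelium and other epithelia, 10 were under 1 CPM in both groups and PTPRC, COL1A2, KDR and KRT5 had no count, with sums of 117 to 138 CPM in hypoxia and 139 to 150 CPM in normoxia. Single markers moved in opposite directions within that sum. CD68 averaged 46.4 CPM in hypoxia and 6.19 CPM in normoxia, CDH5 averaged 0.453 CPM in hypoxia and 9.14 CPM in normoxia, and KRT7 averaged 13.96 CPM in hypoxia and 52.9 CPM in normoxia. PECAM1, an endothelial marker like CDH5, went the other way, with 4.86 CPM in hypoxia and 2.11 CPM in normoxia. So did KRT14, an epithelial marker like KRT7, with 3.46 CPM in hypoxia and 1.91 CPM in normoxia. The fibroblast marker COL1A1 averaged 56.8 CPM in hypoxia and 71.4 CPM in normoxia. The part of these differences in the lincRNA results was not tested.

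Most lincRNA genes had no or few counts. Of the 7516 members, 4317 had no count in any library, 2179 had counts but fell below the low-count filter, and 1020 (13.6%) were tested. Mean levels over the 6 libraries reached 1 CPM for 536 members, 10 CPM for 94 and 100 CPM for 4. The median mean level of the tested members was 1.08 CPM, against 24.7 CPM for the 13140 protein-coding genes tested. Of the 1020, 124 passed the filter through hypoxia alone, with at least 0.269 CPM in its 3 libraries and in no normoxia library. Another 28 passed through normoxia alone. Such genes had to differ, and 123 of the first and 27 of the second were among the calls below.

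More lincRNA genes were higher in hypoxia than lower. Of the 1020 tested, 471 rose, 143 fell and 406 did not pass edgeR's quasi-likelihood test at an adjusted p of 0.05 over the 17396 genes tested. The changed share was 60.2% among lincRNA genes, against 72.8% of all genes tested. The risen share was 46.2%, against 36.5% of all genes, and the fallen share 14%, against 36.3%. At least 2-fold rises were called for 353 lincRNA genes, where 17.5% of all genes rose that far, and at least 2-fold falls for 87, where 11.4% of all genes did. The groups did not overlap for 491 lincRNA genes that were higher in hypoxia, against 38.1% of all genes, and for 159 that were lower, against 37.6%. Together these came to 63.7% of lincRNA genes, against 75.7% of all genes. The median log2 change was 0.52 for lincRNA genes, with quartiles of -0.19 and 1.45, against 0.025 for all genes and -0.08 for protein-coding genes. Antisense lncRNA genes stood close to lincRNA genes, with 459 risen and 162 fallen of 1060 tested and a median of 0.47, so the upward balance was not particular to the intergenic class.

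**Figure D1:**
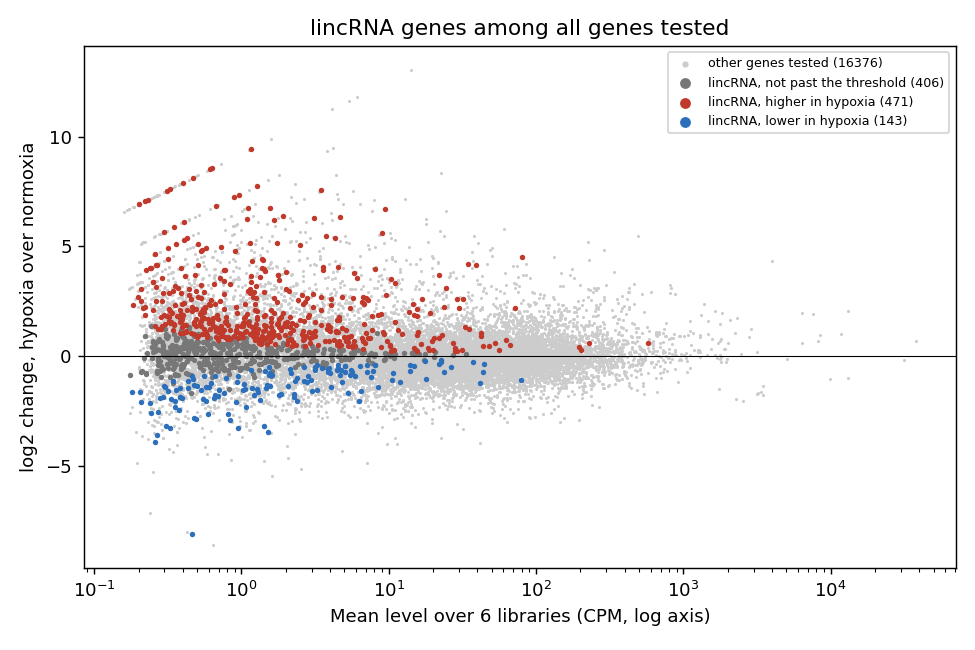
Mean level over the 6 libraries (CPM, log axis) against the log2 change, hypoxia over normoxia, with 1 point per gene tested. The 16376 other genes are in light grey. Of the 1020 lincRNA genes, the risen are in red, the fallen in blue and the 406 that did not pass in darker grey. The 471 risen lincRNA genes outnumber the 143 fallen ones, and the streaks at the left are genes with no or single counts in normoxia, whose fitted change depends on the prior count.

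The filter sets part of the balance at low levels, where many genes pass through 1 group. With a filter on the mean over all 6 libraries instead, 0.5 CPM or more, 380 rose and 105 fell of 749 lincRNA genes, against 5923 and 5979 of 15673 genes in all. Of the 358 lincRNA genes between 1 and 5 CPM, 185 rose and 52 fell, and the median of the log2 changes was 0.65. Among the 46 at 20 CPM or more there were 32 risen and 10 fallen genes, and their median log2 change was 0.50. The balance of protein-coding genes depended on level. Under 0.5 CPM it was close to that of lincRNA genes: 219 rose and 65 fell of 621, against 96 and 34 of 271. At 0.5 to 1 CPM 198 protein-coding genes rose and 100 fell of 540, against 89 and 21 of 213 lincRNA genes. At 1 to 5 CPM 605 protein-coding genes rose and 500 fell of 1609. At 5 to 20 CPM 849 rose and 1519 fell of 3074, against 69 and 26 of 132 lincRNA genes. At 20 CPM or more 2689 protein-coding genes rose and 3460 fell of 7296. Scaling moved the whole distribution: with library totals in place of TMM factors the median of all genes was -0.13 and that of lincRNA genes 0.36, with 413 risen and 167 fallen.

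The lincRNA genes together took a larger part of the RNA in hypoxia. Their share of gene counts was 0.583%, 0.575% and 0.602% in hypoxia, against 0.445%, 0.421% and 0.431% in normoxia. The groups did not overlap. The means were 0.587% ± 0.0135 in hypoxia and 0.432% ± 0.0119 in normoxia (SD, n = 3 each), a difference of 0.154 percentage points, with p = 0.1 in a two-sided exact permutation test, the smallest value that 3 against 3 libraries allow. Without the 10 most abundant members the shares were 0.402% in hypoxia and 0.298% in normoxia. Of the counts of nuclear genes, that is, without the mitochondrial genome, the members took 0.601% in hypoxia and 0.464% in normoxia. That difference was smaller, 0.137 percentage points. Adding back the genes that the rule leaves out, among them H19, NEAT1 and MALAT1, turned the order round, to 3.92% ± 0.201 in hypoxia and 4.53% ± 0.0900 in normoxia. More members were also detected with at least 10 counts, 1023 to 1035 in hypoxia against 875 to 923 in normoxia.

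The largest rises were of genes with no or few counts in normoxia. In 10 tested members the 3 normoxia libraries had no count. They could pass the filter through hypoxia alone, so their direction was fixed by the filter and their number is a description. Set against a floor of 3 counts per library, 0.0764 CPM in the shallowest normoxia library, they were at least 5.27-fold to at least 30.5-fold higher. The floors cover counting error only. Coordinates here and below are those of the gene bodies in GENCODE release 29 on GRCh38.

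ENSG00000285888 (chr6:36768485-36774651, plus strand), which lies within the body of CPNE5, a calcium-dependent membrane-binding protein gene, on chromosome 6, had 2.30, 2.62 and 2.06 CPM in hypoxia, against 0 in all 3 normoxia libraries. It was at least 30.5-fold higher (adjusted p = 8.17e-07, edgeR). CPNE5 itself averaged 3.02 CPM in hypoxia and 0.185 CPM in normoxia. LINC01583 (chr15:82088594-82097694, plus strand), with 6 exons, had 1.12, 1.67 and 1.02 CPM in hypoxia, against 0 in normoxia, and was at least 16.6-fold higher. LINC02178 (chr16:50390916-50395133, minus strand) had 0.953, 1.21 and 1.53 CPM in hypoxia, against 0 in normoxia, and was at least 16.1-fold higher. The windows of LINC01583 and LINC02178 are the first shown above. Their nearest protein-coding genes, the ribosome maturation factor gene EFL1 and the bromodomain gene BRD7, had log2 changes of 1.07 and -0.15.

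LINC01291 (chr2:74918148-74938418, plus strand) reached the highest hypoxia level of these 8 genes. It had 7.12, 6.68 and 7.03 CPM in hypoxia, against 0.0503, 0.0250 and 0.0255 CPM in normoxia, that is, 1 or 2 counts there. The fitted log2 change was 7.55 ± 0.25 (SE), with adjusted p = 9.20e-10 in edgeR. It rests on those few counts and was 10.06 by the most abundant transcript. LINC00898 (chr22:47621043-47631569, minus strand) averaged 2.54 ± 0.379 CPM in hypoxia and 0.00839 ± 0.0145 CPM in normoxia (SD, n = 3 each), where 1 library held a single count. LINC02348 (chr15:101613676-101614339, minus strand) had 2.64, 1.47 and 1.68 CPM in hypoxia, against 0, 0 and 0.0255 CPM in normoxia. ENSG00000227047, whose nearest protein-coding gene is the small GTPase gene RHOB, 50126 bases away with a log2 change of 2.60, averaged 1.76 CPM in hypoxia and 0.00832 CPM in normoxia. LINC01714 averaged 1.34 CPM in hypoxia and 0.00839 CPM in normoxia. Its nearest protein-coding gene, the sugar transporter gene SLC45A1, lies 102616 bases away and had few counts itself. SLC45A1 averaged 0.424 CPM in hypoxia and 0.00832 CPM in normoxia, a log2 change of 5.18 ± 0.74 (SE). Groups that do not overlap were a condition for naming these 8 genes. That the lowest hypoxia library stood above the highest normoxia library in each is therefore no result.

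**Figure D2:**
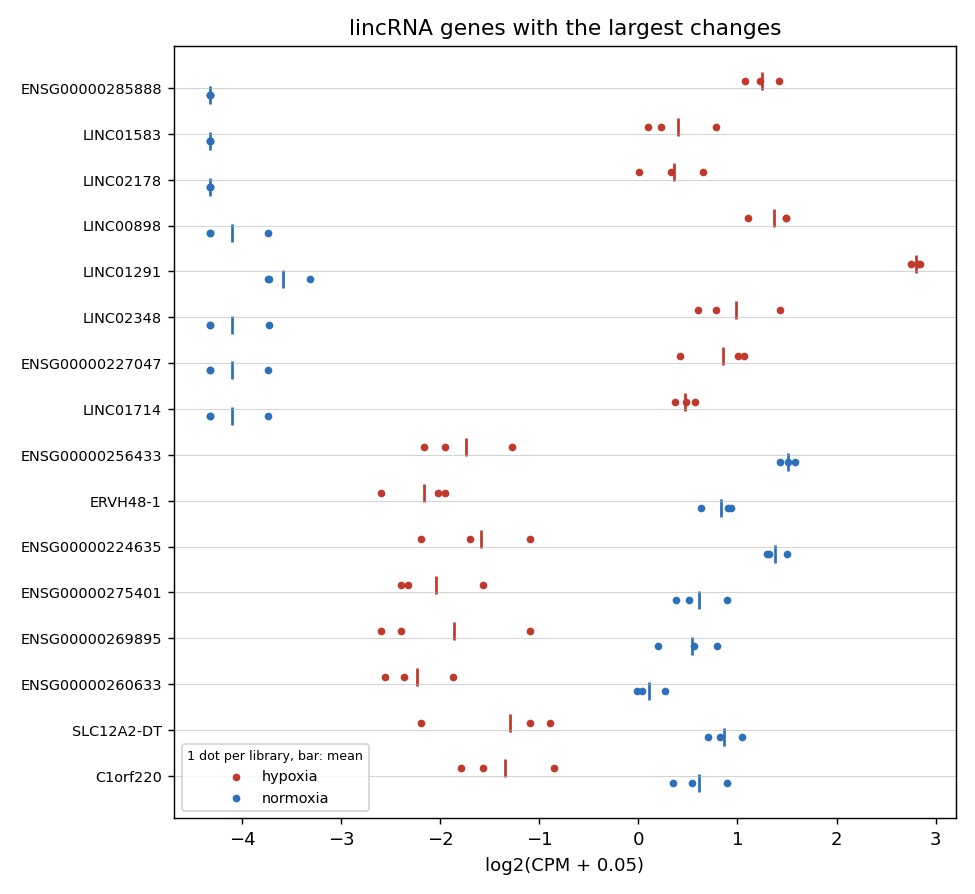
Level of the 8 risen and 8 fallen lincRNA genes with the largest changes, as log2(CPM + 0.05), with 1 dot per library and a bar at the mean, hypoxia in red above normoxia in blue. The risen genes in the upper rows sit at or near the left edge in normoxia, whereas the fallen genes in the lower rows keep counts in hypoxia.

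The named falls kept some counts in hypoxia, whereas LINC00570, described last, had none there. ENSG00000256433 (chr12:6393905-6396148, plus strand), which starts downstream of the lymphotoxin beta receptor gene LTBR on the same strand, had 0.364, 0.173 and 0.209 CPM in hypoxia, against 2.64, 2.95 and 2.80 CPM in normoxia. It fell 11.1-fold (log2 change -3.47 ± 0.28 SE, adjusted p = 9.08e-07, edgeR), while LTBR had a log2 change of -1.04. ERVH48-1 (chr21:42916803-42925646, minus strand), a retroviral gene, encodes suppressyn, a protein that blocks cell fusion by syncytin in the placenta. It carries the lincRNA type in release 29 but is listed as protein-coding in RefSeq. It averaged 0.174 ± 0.0510 CPM in hypoxia and 1.73 ± 0.197 CPM in normoxia (SD, n = 3 each) and fell 9.80-fold.

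ENSG00000224635 and ENSG00000275401 lie next to each other on chromosome 20, both with LBP, the gene of the lipopolysaccharide-binding protein, as their nearest protein-coding gene. The first had 0.168, 0.259 and 0.419 CPM in hypoxia, against 2.42, 2.77 and 2.45 CPM in normoxia. The second had 0.140, 0.288 and 0.150 CPM in hypoxia, against 1.81, 1.25 and 1.38 CPM in normoxia. They fell 8.99-fold and 7.56-fold, and groups that do not overlap were a condition for naming these falls.

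ENSG00000260633 (chr3:134347288-134349233, minus strand) starts downstream of AMOTL2, an angiomotin family gene, and fell 6.16-fold to 0.163 CPM in hypoxia, against 1.02 CPM in normoxia. ENSG00000269895 fell 6.22-fold, and 34.9% of its most abundant transcript, read as words of 31 bases, also occurs in other genes, mostly in the pseudogene OR7E13P, so reads could have been divided. SLC12A2-DT, named for its divergent position to a chloride cotransporter gene and overlapping CCDC192 on the opposite strand, had 0.168, 0.489 and 0.419 CPM in hypoxia, against 2.01, 1.72 and 1.58 CPM in normoxia, and fell 4.92-fold. C1orf220, whose window is shown above, fell 4.25-fold and overlaps TEX35 on the same strand. LINC00570 had rounded counts of 0 in all 3 hypoxia libraries, and it is named here after its values were seen. It had 1.16, 1.17 and 0.459 CPM in normoxia and was at least 10.4-fold lower in hypoxia against a floor of 0.0898 CPM.

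Among the most abundant members the changes were smaller and mostly upward. NORAD (chr20:36045622-36050960, minus strand), a conserved RNA linked to genome stability, had 282, 260 and 281 CPM in hypoxia, against 177, 179 and 185 CPM in normoxia. It rose 1.52-fold (log2 change 0.60 ± 0.04 SE, adjusted p = 4.22e-07, edgeR). LINC03061 averaged 224 ± 12.3 CPM in hypoxia and 167 ± 2.73 CPM in normoxia (SD, n = 3 each), and LINC00506 averaged 222 ± 11.6 CPM in hypoxia and 182 ± 5.15 CPM in normoxia. For both the lowest hypoxia library was above the highest normoxia library. Words shared with other genes made up 56.4% of the NORAD transcript, 32.7% of that of LINC00506 and 11.8% of that of LINC03061.

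RMRP (chr9:35657751-35658018, minus strand), the RNA component of the endonuclease RNase MRP, had the highest count of all members, with 578, 642 and 839 CPM in hypoxia and 521, 408 and 442 CPM in normoxia. Of its transcript, 98.3% is shared with a second annotation of RMRP of the type ribozyme, which averaged 10076 CPM in hypoxia and 6311 CPM in normoxia, so the lincRNA entry holds a small part of the reads of that locus. It rose 1.5-fold (adjusted p = 0.00164, edgeR).

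After RMRP, the largest gain in CPM was that of LINC00319 (chr21:43446601-43453893, plus strand). It had 145, 167 and 147 CPM in hypoxia, against 7.30, 6.19 and 6.50 CPM in normoxia, a rise of 23.0-fold (log2 change 4.52 ± 0.08 SE, adjusted p = 1.49e-11, edgeR). Of its most abundant transcript, 97.9% is shared with ENSG00000280179, a near-identical copy elsewhere on chromosome 21 that averaged 65.7 CPM in hypoxia and 3.60 CPM in normoxia. The division of reads between these copies is uncertain, and both rose. LINC01667 (chr21:9781918-9814009, minus strand) had 115, 121 and 120 CPM in hypoxia, against 25.3, 25.7 and 25.7 CPM in normoxia, and rose 4.64-fold. LINC01588 (chr14:49927571-50092643, minus strand) had 75, 74.7 and 72.6 CPM in hypoxia, against 4.23, 4.2 and 3.92 CPM in normoxia, and rose 18-fold. Under 1% of the most abundant LINC01588 transcript is shared with other genes.

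Other abundant members also rose. MUC20-OT1, a transcript with 142 annotated forms that partly overlaps the mucin gene MUC20, averaged 78.6 CPM in hypoxia and 46.6 CPM in normoxia, and 51.8% of its most abundant form is shared with other genes. ENSG00000228434, which overlaps SPDYE1 on the opposite strand, averaged 78.2 CPM in hypoxia and 54.3 CPM in normoxia. LINC00504 averaged 60.9 ± 3.71 CPM in hypoxia and 51.0 ± 0.467 CPM in normoxia (SD, n = 3 each), a log2 change of 0.26 in edgeR that was lost with library totals (0.10) and with limma on FPKM, where it was at most 0.0049.

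FENDRR (chr16:86474529-86509099, minus strand) was the most abundant member that fell. It had 48.2, 51.9 and 51.8 CPM in hypoxia, against 104, 112 and 109 CPM in normoxia, and fell 2.15-fold (log2 change -1.10 ± 0.05 SE, adjusted p = 8.55e-09, edgeR). FOXF1, the transcription factor gene that lies divergently on the opposite strand 1428 bases away, had a log2 change of -0.50. CYTOR (chr2:87454781-87636740, plus strand), an RNA linked to the cytoskeleton and to tumour growth, had 23.8, 24.8 and 26.3 CPM in hypoxia, against 59.2, 58.5 and 57.1 CPM in normoxia, and fell 2.33-fold. Of its most abundant transcript, 68.9% is shared with other genes, nearly all of that with MIR4435-2HG, which averaged 22.9 CPM in hypoxia and 34.5 CPM in normoxia. LINC00707 averaged 33.3 ± 0.358 CPM in hypoxia and 54.2 ± 2.33 CPM in normoxia, and LINC00958 averaged 17.9 ± 2.67 CPM in hypoxia and 29.9 ± 4.65 CPM in normoxia (SD, n = 3 each). ENSG00000277991 had 21.6, 6.42 and 6.82 CPM in hypoxia, against 21.5, 24.8 and 26.9 CPM in normoxia. Library C4 lay within the normoxia range, the transcript is wholly shared with another gene, and the call (adjusted p = 0.0228, edgeR) was lost without C5 (log2 change -0.77), C6 (-0.79) or C3 (-0.997).

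**Figure D3:**
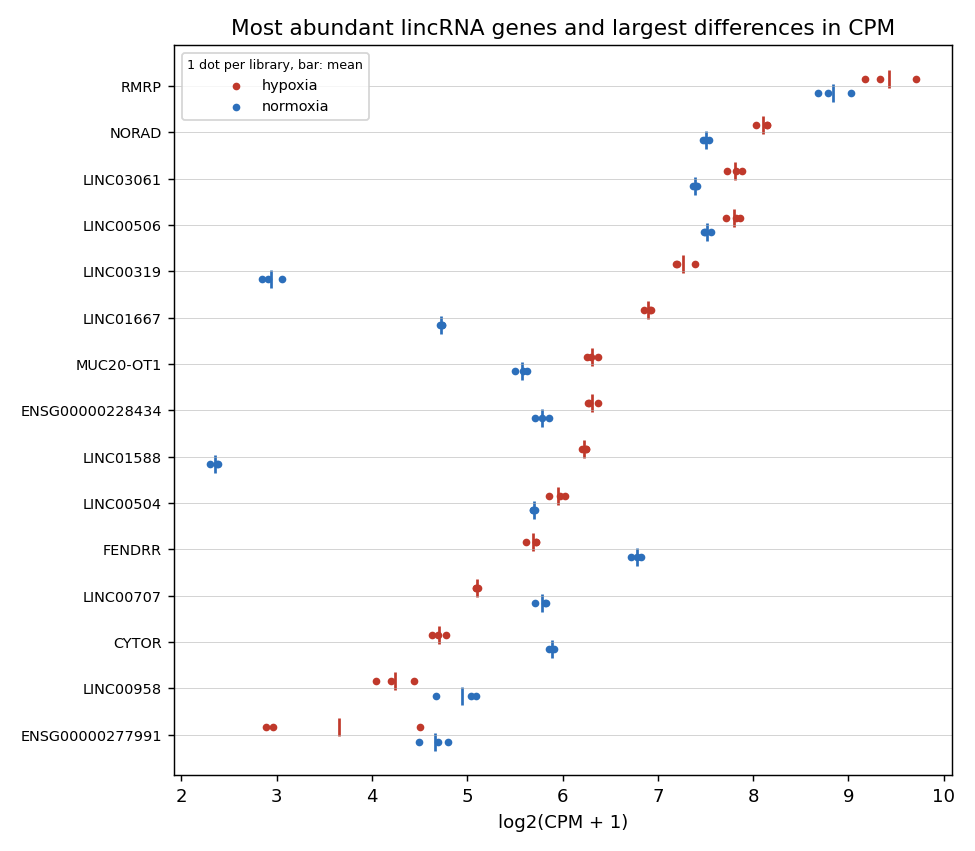
Level of the 10 most abundant lincRNA genes and of those with the largest differences in CPM, as log2(CPM + 1), with 1 dot per library and a bar at the mean, hypoxia in red above normoxia in blue. LINC00319, LINC01667 and LINC01588 show wide gaps between the groups, while for ENSG00000277991 a hypoxia library falls among the normoxia libraries.

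Per length, the order of these genes differed, on FPKM computed from the expected counts and transcript lengths and summed over the transcripts of each gene. RMRP stayed the highest of them, with 2275 FPKM in hypoxia and 1684 FPKM in normoxia. LINC01667 averaged 87.8 FPKM in hypoxia and 21.2 FPKM in normoxia. CYTOR averaged 29.7 FPKM in hypoxia and 65.3 FPKM in normoxia. MUC20-OT1, LINC01588, LINC03061, LINC00506, NORAD and LINC00319 lay between 42.8 and 47.5 FPKM in hypoxia. In normoxia LINC01588 and LINC00319 stood at 1.66 and 2.12 FPKM, and the other 4 between 28.7 and 41.7 FPKM.

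Members were next divided by their position to protein-coding genes. Of the 1020 tested, 185 overlap a protein-coding gene body, 167 start within 5 kb of a protein-coding start on the opposite strand (divergent), and 124 start within 10 kb past the end of a protein-coding gene on the same strand (downstream). A further 315 lie within 50 kb otherwise (near), and 229 lie 50 kb or more away (distant). In the near class 163 genes rose and 36 fell, and the median log2 change was 0.69. In the distant class 109 rose and 28 fell (median 0.47). In the divergent class 75 rose and 18 fell (median 0.59). Medians were lowest for the overlapping class, 0.26 with 74 risen and 31 fallen, and the downstream class, 0.29 with 50 risen and 30 fallen. Members at least 10 kb from every protein-coding gene had 230 risen and 52 fallen of 464, with a median of 0.61. Of the near, distant, divergent, downstream and overlapping genes 51.7%, 47.6%, 44.9%, 40.3% and 40% rose. In that order 11.4%, 12.2%, 10.8%, 24.2% and 16.8% fell. Of those at least 10 kb away 49.6% rose and 11.2% fell. Of all genes tested 36.5% rose and 36.3% fell, so the risen shares of the downstream and overlapping classes were near that of all genes. These are counts over genes and were not tested against each other.

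**Figure D4:**
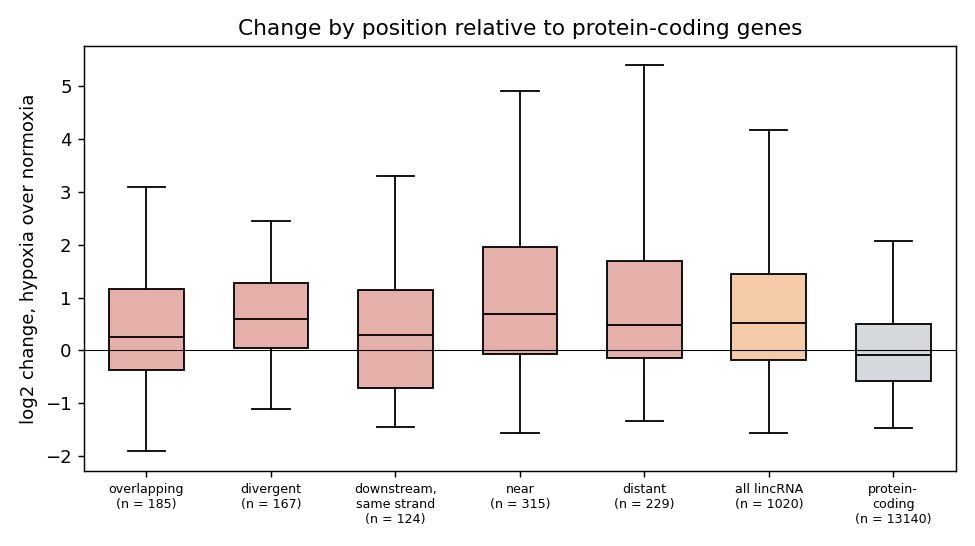
The log2 change, hypoxia over normoxia, of tested lincRNA genes by position class, of all 1020, and of the 13140 protein-coding genes tested. Boxes span the quartiles with a line at the median, and whiskers run from the 5th to the 95th percentile: each lincRNA class has its median above 0, from 0.26 to 0.69, against -0.08 for protein-coding genes.

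The lincRNA genes and their protein-coding neighbours often shared a direction, and the downstream class had the highest correlation of the 5. Of the 30 fallen lincRNA genes in the downstream class with a tested neighbour, 28 had a fallen neighbour, 1 a risen neighbour and 1 a neighbour that did not pass. Over all 120 downstream pairs, 56 neighbours (46.7%) fell, and 43.0% of all tested protein-coding genes did. Of the 46 risen downstream lincRNA genes, 26 had a risen neighbour, 10 a fallen one and 10 one that did not pass, where 34.2% of the neighbours in all 120 pairs rose. Across these pairs the log2 changes correlated at r = 0.47 and rho = 0.51. In the divergent class (157 pairs) r was 0.34 and rho 0.46, and 47 of 72 risen lincRNA genes had a risen neighbour, where 43.9% of the neighbours in all 157 pairs rose. In the overlapping class (149 pairs) r was 0.34 and rho 0.33, in the near class (255 pairs) 0.24 and 0.27, and in the distant class (131 pairs), where the neighbour is the nearest protein-coding gene at any distance, 0.36 and 0.35. Fallen lincRNA genes had a fallen neighbour in 14 of 25 overlapping, 10 of 17 divergent, 16 of 26 near and 12 of 16 distant pairs. Over all pairs of these classes 37.6%, 43.3%, 33.7% and 40.5% of the neighbours fell. The differences between classes were not tested. Both genes of a pair were read in the same libraries, so the correlations are descriptions.

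**Figure D5:**
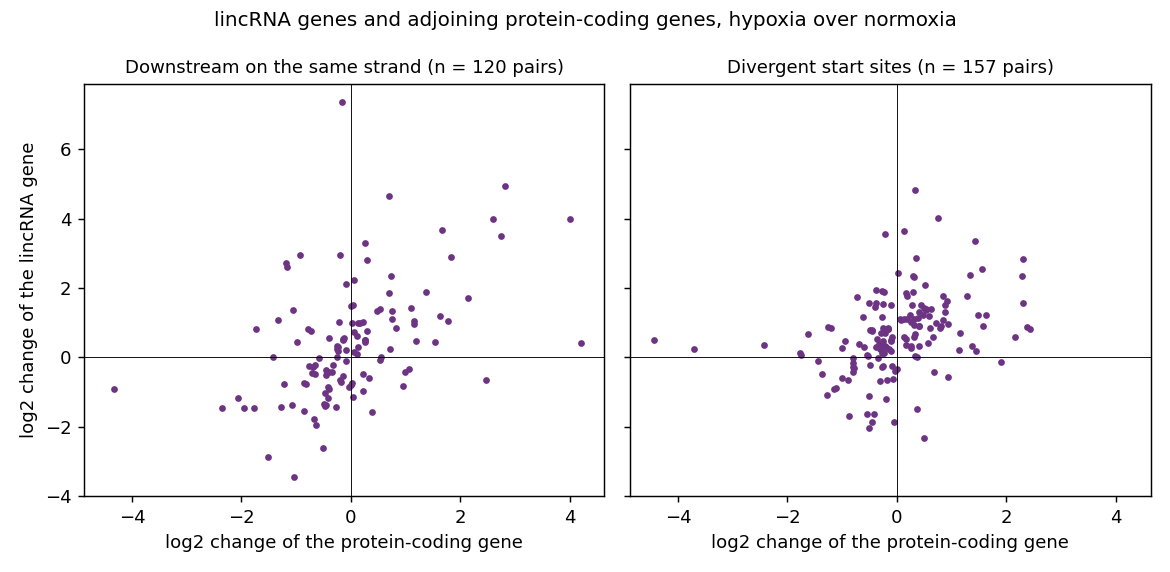
The log2 change of the protein-coding gene against that of the lincRNA gene, hypoxia over normoxia, with 1 point per pair, for 120 downstream pairs on the left and 157 divergent pairs on the right. Of the 30 downstream lincRNA genes that fell, 28 have a neighbour that fell and lie at the lower left.

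Several downstream pairs show the size of the shared change. ENSG00000250899 starts 764 bases past TEAD4, a transcription factor gene of the Hippo pathway, and had 4.23, 4.41 and 5.06 CPM in hypoxia, against 12.6, 13.3 and 10.8 CPM in normoxia. Its log2 change was -1.42 and that of TEAD4 -1.27. LINC02728, downstream of the asparaginyl-tRNA synthetase gene NARS2, had a log2 change of -2.87, against -1.51 for NARS2. ENSG00000263731, downstream of the RNA export factor gene ALYREF, averaged 1.65 CPM in hypoxia and 4.85 CPM in normoxia, with log2 changes of -1.55 for the lincRNA and -0.86 for ALYREF. The single exception among the 30 with a risen neighbour was ENSG00000285867 next to S100A16, with log2 changes of -1.56 and 0.38.

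Among risen downstream genes, LINC00482 (chr17:81303771-81309248, minus strand) had 17.2, 21.6 and 18.2 CPM in hypoxia, against 2.01, 1.5 and 1.5 CPM in normoxia, a log2 change of 3.50 beside 2.75 for TMEM105. LINC02972 had 27.6, 30.7 and 27.9 CPM in hypoxia, against 5.11, 5.17 and 3.97 CPM in normoxia, a log2 change of 2.60, while its neighbour RIMKLB fell by 1.16 on the log2 scale. OLMALINC, downstream of the stearoyl-CoA desaturase gene SCD, had 50.8, 45.5 and 45.0 CPM in hypoxia, against 8.86, 19 and 28.5 CPM in normoxia. The groups did not overlap, but the normoxia libraries were widely spread. Its log2 change was 1.33 ± 0.29 (SE), against 0.76 for SCD. TERC, the template RNA of telomerase, also carries the lincRNA type and averaged 20.3 ± 1.02 CPM in hypoxia and 10.6 ± 0.474 CPM in normoxia (SD, n = 3 each), a log2 change of 0.94 ± 0.08 (SE). These 4 genes, and the pairs of the paragraph before, were chosen after their values were seen.

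Adjacent lincRNA genes were also compared. With gene bodies under 50 kb apart taken as a cluster, 188 tested members formed 86 clusters with 102 adjacent pairs. Both genes of a pair changed in 46 pairs: 37 rose together, 6 fell together and 3 moved in opposite directions. Of all changed lincRNA genes 76.7% rose, so a shared direction is common for any pair of them, and nothing particular to neighbours is read from this count. Adjacent genes may share reads, and how far this bears on the counts was not tested. Clusters named here were chosen after their values were seen. On chromosome 21 (44932814 to 45004727) all 5 tested members rose: LINC01547, ENSG00000276529, LINC00163, LINC00165 and PICSAR, an RNA first described in cutaneous squamous cell carcinoma. PICSAR had 21.0, 23.0 and 20.5 CPM in hypoxia, against 10.3, 9.94 and 9.63 CPM in normoxia, a rise of 2.16-fold (adjusted p = 2.58e-07, edgeR). LINC01547 lies 97 bases from SLX9, which had a log2 change of 1.63.

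On chromosome 22, LINC00898, EPIC1 and AL121580.1 rose. The fitted log2 change of LINC00898, 7.76, rests on a single normoxia count and was 9.54 without C1, which held it, and 9.47 by its most abundant transcript. Those of EPIC1 and AL121580.1 were 3.97 and 2.94. The nearest protein-coding gene lies 445344 bases from LINC00898. EPIC1, described as a partner of MYC, had 2.52, 3.80 and 1.71 CPM in hypoxia, against 0.126, 0.200 and 0.178 CPM in normoxia. On chromosome 14, LINC02320, LINC00239 and ENSG00000258919 rose. LINC00239 averaged 2.62 CPM in hypoxia and 0.118 CPM in normoxia, and the neighbouring phosphatase subunit gene PPP2R5C did not pass (log2 change -0.07). On chromosome 20, PELATON, LINC01270 and LINC01271 rose, with log2 changes of 1.79, 1.63 and 1.31, and their nearest protein-coding gene, the transcription factor gene CEBPB, had a log2 change of 1.71.

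A cluster on chromosome 10 was split. LINP1, an RNA that takes part in repair of broken DNA ends, had 39.6, 37.4 and 40.1 CPM in hypoxia, against 8.33, 7.62 and 9.20 CPM in normoxia, and rose 4.66-fold. LINC00706 rose as well, at 0.688 CPM in hypoxia and 0.126 CPM in normoxia. LINC00707, whose body begins within 1 kb of LINC00706 on the other strand, fell 1.63-fold. ENSG00000280614 and ENSG00000281181 on chromosome 21 had the same values in every library and were counted as separate genes.

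Lists of named lincRNAs gave mixed directions. Their counts are read beside the shares of all lincRNA genes tested, of which 46.2% rose and 14% fell, and of all genes, of which 36.5% rose and 36.3% fell. The lists are short, and nothing particular to a list is drawn from them. Of 19 symbols linked to hypoxia in the literature, 10 were members and 4 were tested, of which 2 rose and 2 fell. UCA1 (chr19:15828206-15836326, plus strand), first found in bladder cancer, had 6.14, 4.41 and 4.73 CPM in hypoxia, against 1.51, 0.974 and 0.713 CPM in normoxia, a rise of 4.77-fold (log2 change 2.25 ± 0.25 SE, adjusted p = 1.36e-05, edgeR). PRECSIT, also called LINC00346, had 32.4, 30.1 and 28.5 CPM in hypoxia, against 15.8, 14.7 and 15.6 CPM in normoxia, and rose 1.98-fold. CYTOR fell, as given above. PVT1, the neighbour of MYC, had 19.9, 22.0 and 20.3 CPM in hypoxia, against 29, 21.3 and 23.8 CPM in normoxia. The groups overlapped, and its log2 change of -0.25 ± 0.10 (SE) passed narrowly (adjusted p = 0.04998, edgeR). The call was lost in several settings, among them without C1 (-0.13). MYC had a log2 change of -1.63.

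The 41 symbols linked to cancer gave 27 member genes, with LINC00941 matching 2 genes. Of the 27, 16 were tested: 5 rose, 9 fell and 2 missed the threshold. Their median log2 change was -0.69, against 0.52 for all lincRNA genes tested. Fallen members were LINC00665, with 6.11, 6.94 and 9.07 CPM in hypoxia, against 14.9, 20.03 and 14.5 CPM in normoxia, LINC00472, LINC00662 and LINC01234, besides FENDRR, CYTOR, LINC00707, LINC00958 and PVT1. LINC00662 averaged 3.34 CPM in hypoxia and 6.04 CPM in normoxia. LINC01234 had 0.701, 0.0576 and 0.150 CPM in hypoxia, against 0.730, 1.42 and 1.12 CPM in normoxia, so that C4 lay close to the lowest normoxia library and carried most of the hypoxia mean. The risen members were UCA1, MIAT, LINC00324, LINC00467 and ENSG00000285517, which release 29 names LINC00941. The other gene of that name, ENSG00000235884, had no count in hypoxia and was below the filter. LINC00324 (chr17:8220642-8224043, minus strand) had 5.38, 4.98 and 5.72 CPM in hypoxia, against 0.755, 0.824 and 0.688 CPM in normoxia, and rose 7.06-fold without overlap. CRNDE had a log2 change of 0.06 and EPB41L4A-AS1 one of -0.90, and neither passed.

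Of 14 symbols linked to nuclear organisation and RNA regulation, 5 were members and all 5 were tested: FTX, MIAT and NORAD rose and JPX and LINC-PINT did not pass. MIAT had 9.50, 9.27 and 8.83 CPM in hypoxia, against 5.48, 5.37 and 4.84 CPM in normoxia, and rose 1.76-fold (adjusted p = 2.78e-05, edgeR). FTX, a noncoding gene of the X-inactivation centre, averaged 51.0 ± 4.45 CPM in hypoxia and 36.8 ± 3.40 CPM in normoxia. JPX, which overlaps FTX on the opposite strand, averaged 6.91 ± 1.26 CPM in hypoxia and 8.53 ± 0.547 CPM in normoxia (SD, n = 3 each), and 96.9% of its most abundant transcript is shared with other genes, mostly FTX, read on either strand.

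Of 10 symbols linked to p53, 6 were members and 4 were tested. PURPL, an RNA induced by p53 that lowers p53 levels, had 12.6, 11.5 and 11.9 CPM in hypoxia, against 16.6, 16.4 and 15.0 CPM in normoxia, and fell 1.33-fold. LINC-PINT, PINCR and TP53TG1 did not pass, with log2 changes of 0.10, 0.11 and 0.86. Of 13 symbols enriched in liver, 11 were members, and 9 of these were below the filter, 7 with no count in any library. The 2 tested rose. LINC01554 (chr5:95852232-95860133, plus strand) had 6.14, 4.98 and 9.01 CPM in hypoxia, against 0.503, 0.150 and 0.662 CPM in normoxia, and LINC01348 had 2.92, 3.94 and 3.95 CPM in hypoxia, against 0.579, 0.524 and 0.178 CPM in normoxia. The summed hepatocyte markers, given above and made up nearly wholly of TF, HNF4A and SERPINA1, were also higher in hypoxia. Their part in these rises was not tested.

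The HIF core sequences were read in the promoter windows of those members that RefSeq holds. Of the 1020 tested members, 495 were matched to RefSeq by gene number or symbol and 340 to a promoter window. In 215 of these the window contained the start of the most abundant transcript. At least 1 of ACGTG and GCGTG was present in 57.7% of the 215 windows, against 48.4% of 35116 RefSeq windows of the same length. By call, it was present in 56.1% of 114 windows of risen genes, 46.7% of 30 windows of fallen genes and 64.8% of 71 windows of genes that did not pass. ACGTG alone was present in 31.6% of the risen, 10% of the fallen and 31% of the not passed windows, against 21.4% of all windows. GCGTG was present in 39.5%, 46.7% and 46.5% of these windows, against 36.5% of all. Of the 51 windows of genes that rose at least 4-fold, 52.9% held a core sequence, with a median of 7 CpG dinucleotides, against 14 over all windows. Both cores contain a CpG, and the median CpG count was 14 in risen, 20.5 in fallen and 20 in not passed windows. No test was made of these shares.

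The directions were also counted by transcript structure. Of 612 tested members whose most abundant transcript has several exons, 313 rose and 81 fell (median log2 change 0.70). Of 408 with a single exon, 158 rose and 62 fell (median 0.30). The risen shares were 51.1% with several exons and 38.7% with a single exon, and the fallen shares 13.2% and 15.2%. Of all genes tested 36.5% rose and 36.3% fell, so the risen share with a single exon was near that of all genes. The median exonic length of the tested members was 1903 bases, against 5061 bases for tested protein-coding genes. In 114 members at least 50% of the most abundant transcript is made of 31-base words found in other genes, and 52 of these rose and 18 fell. In the 490 with under 5% shared, where reads are least likely to be divided, 235 rose and 77 fell, with a median of 0.59. The risen shares of these sets were 45.6% with at least 50% shared and 48.0% with under 5%. Their fallen shares were 15.8% and 15.7%.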

How the data were processed

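The submitters' processing notes name cutadapt, HISAT2, RSEM and the GRCh38 (hg38) build. For versions, annotation and strand setting, nothing is given in the sources used here. Expected counts were deposited by the authors: reads divided among transcripts by RSEM, for 251062 transcripts. The 6 deposited FPKM columns, a second measure of the same libraries, were not used, and FPKM was recomputed from the expected counts and transcript lengths, which are not effective lengths. GENCODE release 29 assigned transcripts to genes, whose counts are sums over transcripts, and 48155 rows without a gene, holding 6.12% to 6.39% of the counts, were left out. Column names gave each library its condition but no replicate number.

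Gene sums were rounded, filtered with filterByExpr, scaled by TMM and compared by the two-sided quasi-likelihood test of edgeR (R 4.3.3, DESeq2 1.42.0, edgeR 4.0.16, limma 3.58.1), with Benjamini-Hochberg adjustment over 17396 genes and a threshold of 0.05. The standard error is the log2 change divided by the square root of F. In data simulated for this comparison and tested on 17036 genes, the test found 16% of the 25 lincRNA genes given a 1.5-fold change, 33.3% of the 24 given a 2-fold change and 84.8% of the 46 given a 4-fold change. There, 16842 genes were left unchanged, whereas 72.8% of all genes were called in the real data. The adjustment is stricter where few genes change, so these rates do not carry over to the real libraries.

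The members were set by annotation, whereas the named genes and lists were chosen with earlier results of these data known. Named genes are the 8 largest rises and 8 largest falls past the threshold with non-overlapping groups and at least 1 CPM in a group, the 10 most abundant members, the 5 largest rises and 5 largest falls in CPM, and up to 5 called members of each list. Others are said to be chosen after their values were seen, or are the remaining list members and neighbours of named genes. RefSeq promoter windows (GRCh38.p14) stood in for the planned windows at the most abundant transcript start. Alternatives changed the filter, scaling, tool, gene summary, member subset and libraries.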

Additional observations from a re-analysis of the deposited data

How the results depend on the processing

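More lincRNA genes rose than fell in each of the 16 refits of the whole table, and risen genes made up 71.2% to 79.2% of those changed. The median log2 change was 0.551 with a mean CPM of 0.5 or more, 0.582 with a mean FPKM of 0.5 or more (92 fallen), 0.365 with library totals and 0.593 with TMM factors from protein-coding genes. With limma on log2(FPKM + 0.5), log2(FPKM + 0.1) and log2(FPKM + 1) the medians were 0.283, 0.386 and 0.221, with 297, 291 and 298 risen, and 406 changed at 0.1. These fits tested 648 lincRNA genes. By subset, 282 changed (230 risen, 52 fallen, median 0.611) of those 10 kb or more from protein-coding genes, 312 (235 risen, 77 fallen, median 0.587) of those with under 5% shared words, a subset chosen after seeing the data, and the median was 0.550 where exons overlap no other gene. Without each library in turn, 569 to 619 changed, 436 to 485 rose, 133 to 141 fell and the median was 0.490 to 0.645, the highest without normoxia C1. The difference in share of counts was 0.147 to 0.160 percentage points without each library, 0.137 as a share of nuclear gene counts and 0.104 without the 10 most abundant members.

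Of 600 values for 39 named genes, 582 kept their direction and their side of the threshold, 17 lost the call and 1 reversed. The losses were in LINC00504, ENSG00000277991 and PVT1. PVT1 had a log2 change of 0.083 by its most abundant transcript, and its call was lost with both filters by mean level (-0.23 and -0.22), with TMM factors from protein-coding genes (-0.17) and without C4, C5, C6, C1 or C3 (-0.29 to -0.13). The cause was not tested. No paired analysis was possible because the columns carry no replicate numbers of the labels. The tested lincRNA genes had a median of 1.08 CPM, and in the simulated data changes under 4-fold in lincRNA genes were often missed. Far fewer genes were changed there than were called here, which makes the adjustment stricter. How often such changes were missed in these libraries therefore cannot be read from it.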
